A study of Mus musculus with 6 samples.

Results

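Lsd1 binding was examined at 10 genes of the mammalian circadian clock, namely Clock, Arntl (also known as Bmal1), Per1, Per2, Per3, Cry1, Cry2, Dbp, Bhlhe40 and Bhlhe41, in 3 libraries of chromatin immunoprecipitation followed by sequencing (ChIP-seq). A gene was given every Lsd1 peak whose centre lay between the ends of its curated RefSeq transcripts on mm10 or within 10 kb of them. This rule gave the 10 genes 93 of the 95852 peaks in the 3 lists, 40 of 43426 in the myogenic library, 20 of 18893 in the adipogenic library and 33 of 33533 in the LSD1(OE) library. Peaks of different libraries that overlapped by at least 1 bp were joined, which gave 44 regions at the clock genes among 56729 in all.

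Lsd1 is a histone demethylase that acts in repressive complexes such as CoREST and can also take part in gene activation, and C2C12 is a mouse myoblast line that forms myotubes in myogenic medium. Each condition was sampled once, at day 1 of differentiation, with 1 ChIP and 1 input library, so no value has a replicate and every comparison sets single libraries side by side. Wild-type cells were kept in myogenic medium with 2% horse serum, or in adipogenic medium with 10% FCS, 0.5 mM IBMX, insulin (850 nM), T3 (1 nM), rosiglitazone (1 µM), dexamethasone (5 µM) and indomethacin (125 nM). LSD1(OE) cells were in the same adipogenic medium. They are a stable line made with a lentivirus, selected with G418, that carries a Flag-tagged LSD1 construct induced by doxycycline before and during differentiation. Doxycycline is named for this line and not for the wild-type cells, so the LSD1 level, the selected line and the drug cannot be told apart, nor can the single components of the media. Peak lists hold no expression values, so neither the identity of the cells nor the LSD1 level could be checked in them.

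The clock is a feedback loop of transcription. CLOCK and ARNTL bind E-box sequences as a pair and activate the Per and Cry genes, whose protein products enter the nucleus and inhibit that pair. DBP, a D-box factor, is a direct output of the loop, and BHLHE40 and BHLHE41 (DEC1 and DEC2) are repressors that compete for E-boxes. The loop runs in most tissues, skeletal muscle and fat included, and can be set by serum, glucocorticoid and cAMP signals.

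Sequences are shown for the sites that the comparisons below turn on. They are promoters with a peak in the myogenic library alone (Cry2, Per3) or in every library (Cry1). The others lie under the summit, the highest point, of a peak at Per1, Per2 and Dbp and hold a motif named below. All are 5′ to 3′ on the strand of the gene, and none overlaps an exon. The upstream runs of 250 bases end at the transcription start site (TSS), from RefSeq promoter sequences of GRCm38.p6 (mm10), which hold 12 windows for 8 of the 10 genes, all but Per2 and Bhlhe40. The summit windows of 300 bases were read from the genome of the same build. They are examples chosen with a motif, and counts over all summit windows are given with the promoter motifs. Capitals mark the E-box CACGTG and its variant CACGTT. The variant reads AACGTG on the other strand. They also mark the cAMP response element TGACGTCA (CRE) and the D-box TTATGTAA. The last motif is the core AGGTCA of the element bound by ROR and REV-ERB receptors, which reads TGACCT on the other strand. Both strands were searched for the letters of each motif, and none of the motifs contains another. Of the last element only the core was searched, without its flanks. The Cry2 run lies at chr2:92434070-92434319 (minus strand), the Per3 run at chr4:151044666-151044915 (minus) and the Cry1 run at chr10:85185055-85185304 (minus). The Per1 window lies 1793 bp upstream of the TSS at chr11:69097006-69097305 (plus), the Per2 windows lie 22444 bp and 17685 bp inside the gene at chr1:91436734-91437033 and chr1:91441493-91441792 (both minus), and the Dbp window lies 2379 bp inside the gene at chr7:45707476-45707775 (plus).
Cry2 upstream: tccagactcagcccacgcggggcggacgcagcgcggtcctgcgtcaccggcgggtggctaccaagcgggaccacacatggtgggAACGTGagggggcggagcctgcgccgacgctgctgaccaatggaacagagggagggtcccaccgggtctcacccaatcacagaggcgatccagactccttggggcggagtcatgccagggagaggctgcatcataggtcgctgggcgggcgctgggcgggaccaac
Per3 upstream: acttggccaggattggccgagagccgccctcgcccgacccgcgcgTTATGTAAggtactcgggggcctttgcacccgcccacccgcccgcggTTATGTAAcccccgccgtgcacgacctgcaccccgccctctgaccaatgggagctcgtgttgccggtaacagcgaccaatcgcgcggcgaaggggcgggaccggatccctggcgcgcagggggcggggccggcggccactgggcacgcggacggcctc
Cry1 upstream: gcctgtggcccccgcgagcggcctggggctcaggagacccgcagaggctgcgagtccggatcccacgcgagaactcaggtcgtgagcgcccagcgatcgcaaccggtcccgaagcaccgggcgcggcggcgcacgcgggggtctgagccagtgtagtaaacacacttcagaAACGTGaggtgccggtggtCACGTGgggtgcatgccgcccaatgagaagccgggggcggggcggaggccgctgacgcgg
Per1 myogenic summit: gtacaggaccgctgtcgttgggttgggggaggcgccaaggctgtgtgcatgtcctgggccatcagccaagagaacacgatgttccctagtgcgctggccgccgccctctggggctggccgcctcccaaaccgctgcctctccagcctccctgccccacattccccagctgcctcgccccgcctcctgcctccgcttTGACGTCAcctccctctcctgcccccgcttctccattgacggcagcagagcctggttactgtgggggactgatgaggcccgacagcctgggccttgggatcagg
Per2 LSD1(OE) summit at 22444 bp: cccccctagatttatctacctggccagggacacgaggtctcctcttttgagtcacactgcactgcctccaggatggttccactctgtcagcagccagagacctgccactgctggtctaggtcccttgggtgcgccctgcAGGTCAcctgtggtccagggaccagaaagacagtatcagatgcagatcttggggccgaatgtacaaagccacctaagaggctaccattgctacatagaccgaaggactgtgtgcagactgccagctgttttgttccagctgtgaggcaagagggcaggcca
Per2 LSD1(OE) summit at 17685 bp: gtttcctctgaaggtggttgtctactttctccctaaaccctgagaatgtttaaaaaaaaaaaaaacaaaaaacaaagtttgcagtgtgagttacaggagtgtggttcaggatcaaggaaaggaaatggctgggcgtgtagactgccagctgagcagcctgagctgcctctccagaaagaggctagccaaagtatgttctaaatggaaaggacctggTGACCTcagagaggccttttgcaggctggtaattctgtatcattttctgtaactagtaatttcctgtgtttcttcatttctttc
Dbp LSD1(OE) summit: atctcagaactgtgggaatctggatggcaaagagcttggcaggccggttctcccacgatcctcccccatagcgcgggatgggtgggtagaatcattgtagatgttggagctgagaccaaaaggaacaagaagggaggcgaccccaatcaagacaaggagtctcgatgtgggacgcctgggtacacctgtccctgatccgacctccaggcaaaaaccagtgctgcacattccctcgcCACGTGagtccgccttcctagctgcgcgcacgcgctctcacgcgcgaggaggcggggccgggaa

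After duplicates had been limited, 46155625 ChIP tags were left in the myogenic library, 63915769 in the adipogenic library and 55193310 in the LSD1(OE) library, of which called peaks took up 7.12, 3.20 and 5.28%. The peak caller MACS scaled the ChIP tags up to the input, by 1.90, 1.28 and 1.82 times, which raises its scores to different degrees, so a score (10 times −log10 of the p-value of the peak) orders peaks within a library better than between libraries. Between libraries the tag density was compared instead, as ChIP tags per 1000000 filtered ChIP tags (CPM) and per kb of called peak, with exact 95% Poisson intervals that cover counting error only. Peaks had at least 27, 35 and 30 tags in the 3 libraries, and a site with weaker signal is not listed. Dividing by the tags in peaks instead of all tags would multiply every adipogenic over myogenic ratio by 2.22 and every LSD1(OE) over adipogenic ratio by 0.606, so ratios are also set beside the median of all regions with a peak in both libraries, which moves with them.

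All 10 clock genes had an Lsd1 peak in the myogenic library, 6 had one in the adipogenic library and 8 in the LSD1(OE) library. Over all 26180 genes, 62.5, 41.2 and 53.9% had such a peak. Among the 14073 protein-coding genes with a span in the range of the 10 clock genes the shares were 73.1, 48.1 and 62.6%. In each library every clock gene with a peak also had one at its promoter, centred within 2000 bp of a TSS. Of all genes, with or without a peak, 46.8, 27.0 and 37.3% had a promoter peak. These were 12251, 7063 and 9772 of the 16359, 10781 and 14113 genes with a peak. Among the 14073 protein-coding genes matched for span, 59.1, 33.3 and 46.4% had a promoter peak. Arntl, Per3, Cry2 and Dbp had no peak in the adipogenic library. Thus 4 of 10 genes had a myogenic and no adipogenic peak, beside 22.2% of all genes and 25.8% of the coding genes matched for span. Arntl and Dbp had peaks in the LSD1(OE) library, 2 of 10 beside 15.5% of all genes and 17.6% of the matched coding genes. Per3 and Cry2 had peaks in the myogenic library alone.

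The pattern over the 3 libraries thus split the genes into groups. Clock, Per1, Per2, Cry1, Bhlhe40 and Bhlhe41 had a peak in all 3 libraries, 6 of 10 genes. The share was 37.9% of all genes and 44.5% of the coding genes matched for span. The pattern of Arntl and Dbp was found in 12.5% of all genes, and that of Per3 and Cry2 in 9.66%. Among the coding genes matched for span these shares were 14.9 and 10.9%. No clock gene had a peak in the adipogenic library without one in the myogenic library, which 0.886% of all genes had. When each list was cut to as many of its strongest peaks as the adipogenic list holds, the numbers of clock genes with a peak remained 10, 6 and 8.

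**Figure D1:**
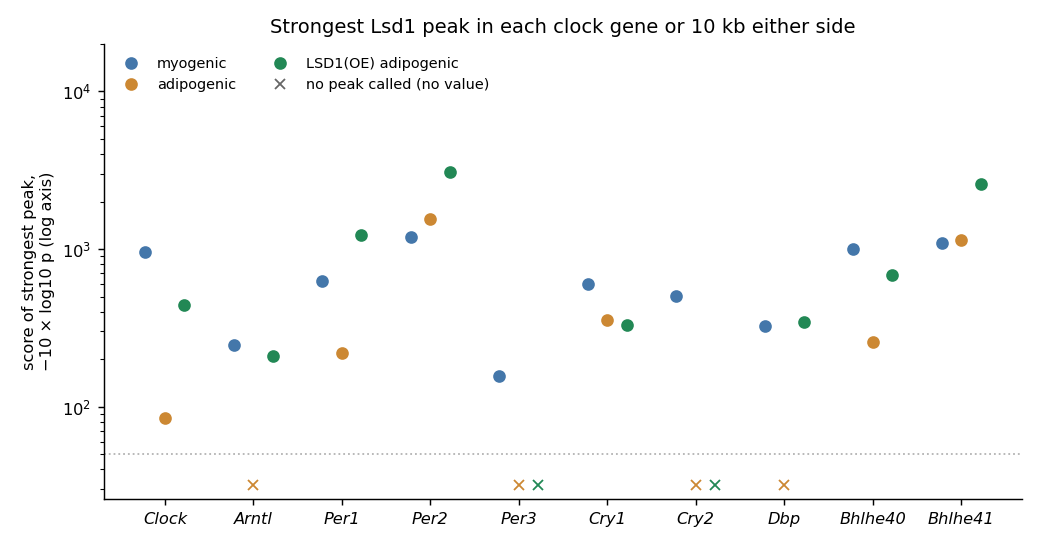
Score of the strongest Lsd1 peak (10 times −log10 p, log axis) in each of the 10 clock genes or 10 kb either side, with 1 point per library and crosses where no peak was called. Scores rest on a different scaling of ChIP to input in each library, and the dotted line is the score of 50 that the p cut-off sets. The adipogenic library has crosses at Arntl, Per3, Cry2 and Dbp, and the highest points are those of Per2 and Bhlhe41 in the LSD1(OE) library, at 3071 and 2592. In every library the Per2 point is a peak beyond the end of Per2, at the start of Hes6.

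Of the 44 clock gene regions, 14 (31.8%) had a peak in all 3 libraries, compared with 20.6% of all regions. A further 12 regions (27.3%, compared with 35.9% of all) were found in the myogenic library alone, 8 (18.2 and 20.8%) in the LSD1(OE) library alone and 1 (2.27 and 3.70%) in the adipogenic library alone. Regions of the myogenic and LSD1(OE) libraries without an adipogenic peak numbered 7 (15.9%, compared with 12.2% of all) and belonged to Arntl, Per1 and Dbp. Of the peaks, 15 of 40, 9 of 20 and 8 of 33 were promoter peaks. Introns held 14, 6 and 13. The places of all other peaks were not counted, so these numbers have no background beside them.

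**Figure D2:**
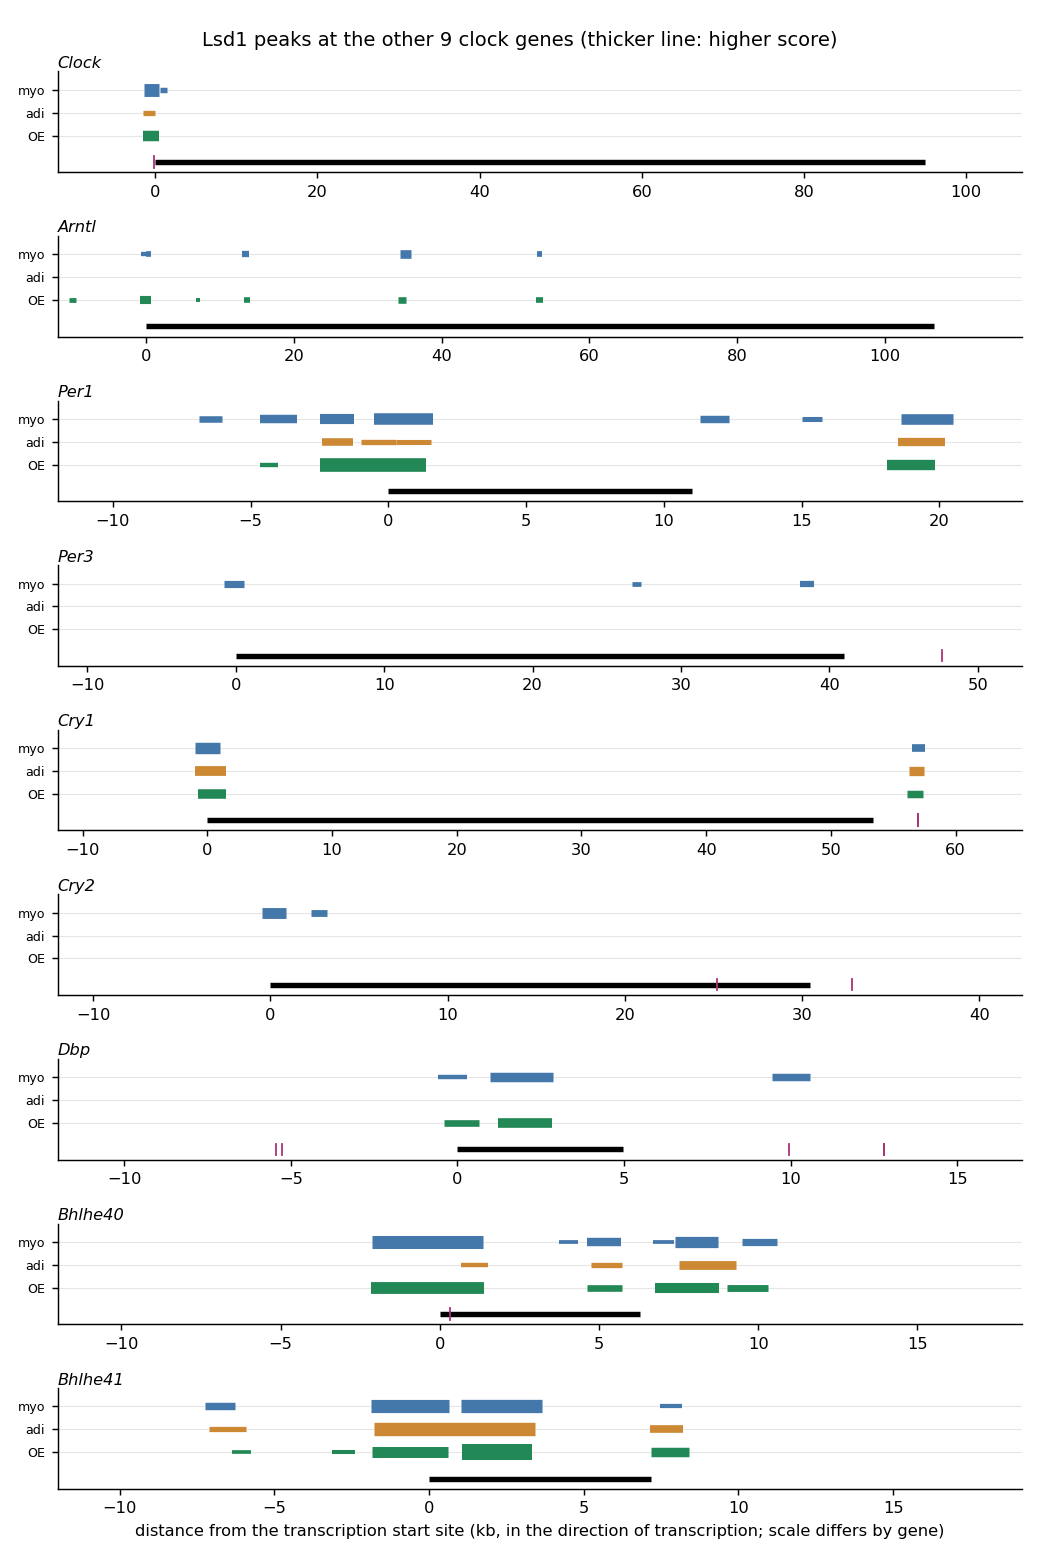
Called Lsd1 peaks of 9 clock genes against distance from the start of the gene (kb, in the direction of transcription; each panel has its own scale), with rows for the myogenic (myo), adipogenic (adi) and LSD1(OE) adipogenic (OE) library and thicker lines for higher scores. The black bar is the gene and purple ticks are starts of other genes. Peaks of Clock were centred within 2000 bp of a Clock start. Those of Cry1 lay at its own start or downstream, at that of Mterf2. Arntl peaks spread over the gene, and the adipogenic rows of Arntl, Per3, Cry2 and Dbp are empty.

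The activators differed from each other. Clock (chr5:76209868-76304792, minus strand) encodes the histone acetyltransferase partner of ARNTL. It had peaks at the promoter only, with a best score of 958 in the myogenic, 85.0 in the adipogenic and 444 in the LSD1(OE) library. At an FDR of 0.1% the adipogenic peak was no longer called. The tag density of this region (chr5:76304247-76306287) was 2.10, 0.973 and 1.42 in the same order. The adipogenic value was 0.464 times the myogenic one (95% interval 0.356 to 0.601), and 14125 of the 14149 regions with a peak in both wild-type libraries had a higher ratio. The median ratio of those regions was 0.800. The LSD1(OE) density was 1.46 times the adipogenic one (1.11 to 1.91), where the median of 13053 regions was 1.09. The same stretch holds the start of Gm7467, 84 bp away on the other side of the Clock start, so the signal of these genes cannot be separated. In the myogenic library the summit lay 78 bp upstream of the nearest Clock TSS. In the adipogenic and LSD1(OE) libraries it lay 1006 and 1027 bp upstream. The adipogenic peak (chr5:76304802-76306216) covered no Clock start, whereas the myogenic and LSD1(OE) peaks spanned the start at chr5:76304792. The densities of this region and their ratios therefore come from partly different stretches.

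Arntl (chr7:113207465-113314126, plus strand), which encodes the partner of CLOCK, had 5 peaks in the myogenic library and 6 in the LSD1(OE) library. The adipogenic library had none, and its closest peak was centred 161852 bp from the TSS. The strongest myogenic peak scored 248 and lay 35052 bp into the gene, in an intron. In the LSD1(OE) library the strongest scored 209, at the promoter. The myogenic promoter peaks were weaker, the higher of them at 95.9, and were not kept at an FDR of 0.1%. The 4 regions with a peak in both libraries lay at the TSS and at 13.5, 34.9 and 53.2 kb. Their LSD1(OE) over myogenic density ratios ran from 0.858 to 1.05, and all 4 intervals held both 1 and the median of 0.879 over 18581 regions. Over all its peaks Arntl had 5.44 CPM (4.79 to 6.15) in the myogenic and 6.18 (5.54 to 6.87) in the LSD1(OE) library, a ratio of 1.14 (0.962 to 1.34). The LSD1(OE) peak centred 9997 bp upstream lies just inside the window of the gene.

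The Per genes, whose proteins form the inhibiting complex with the CRY proteins, showed 3 different patterns. Per3 (chr4:151003655-151044665, minus) had 3 peaks, all myogenic, in a library with a median score of 122. They scored 156 at the promoter and 116 and 72.0 in introns at 38.5 and 27.0 kb, and none of these sites was listed in the other libraries. The nearest LSD1(OE) peak was centred 13489 bp from the TSS, outside the window, and the nearest adipogenic peak 130147 bp away. The Per3 promoter shown above holds 2 copies of the D-box, which 0.938% of the 32851 RefSeq promoter windows contain.

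Per1 (chr11:69098949-69109960, plus), an immediate-early gene of the clock, had 7 myogenic, 4 adipogenic and 3 LSD1(OE) peaks. The promoter region (chr11:69096452-69100588) was split into 2 myogenic peaks, the stronger with a score of 624, and 3 adipogenic peaks of 177, 86.8 and 79.3, and it formed 1 LSD1(OE) peak of 1226. Its density was 1.70, 1.18 and 1.70, so that the myogenic and LSD1(OE) libraries were level (ratio 0.996, 0.848 to 1.17). The adipogenic density was 0.691 times the myogenic one (0.582 to 0.820), with an interval that held the median of all regions. The LSD1(OE) over adipogenic ratio was 1.44 (1.23 to 1.69), above that median. The highest adipogenic score in the window of Per1, 220, belonged to a peak 18.1 kb downstream of the Per1 start whose nearest TSS is that of Hes7. Without it the adipogenic maximum was 177. The peak with that score lay at the CRE printed above. A myogenic summit lay 1793 bp and an adipogenic summit 1791 bp upstream of the start, and both 300-base windows held the CRE, which 0.887% of all myogenic and 1.04% of all adipogenic summit windows contain. The LSD1(OE) summit of the same region lay 1995 bp upstream, and its window held none of the motifs.

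Per2 (chr1:91415982-91459328, minus), a repressor of the loop that responds to resetting signals, had 6 peaks in the myogenic library, 7 in the adipogenic library and 10 in the LSD1(OE) library. As many peaks as in the LSD1(OE) library were found at 1.77% of protein-coding genes, and as many as in the adipogenic library at 1.34%. The strongest peak of the window in every library, with scores of 1198, 1554 and 3071, belonged to the region centred 45.8 kb from the Per2 start, beyond its end, where Hes6, a gene of the Hes family of bHLH factors, starts. Peaks within 3000 bp of another gene's start and over 2000 bp from the gene's own were then left out, a choice made after the peaks had been seen. It took no peak from Clock and Bhlhe40, whose promoters are shared with another start. Per2 then had 4, 5 and 9 peaks that covered 4.14, 9.09 and 15.8 kb. They held 5.57 CPM (4.91 to 6.29) in the myogenic library, 12.5 (11.7 to 13.4) in the adipogenic library and 26.8 (25.4 to 28.2) in the LSD1(OE) library. The mean density over these peaks was 1.35, 1.38 and 1.69. Most of the difference in tags between the wild-type libraries thus went with a longer called stretch, and a sum over called peaks moves with how much was called.

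**Figure D3:**
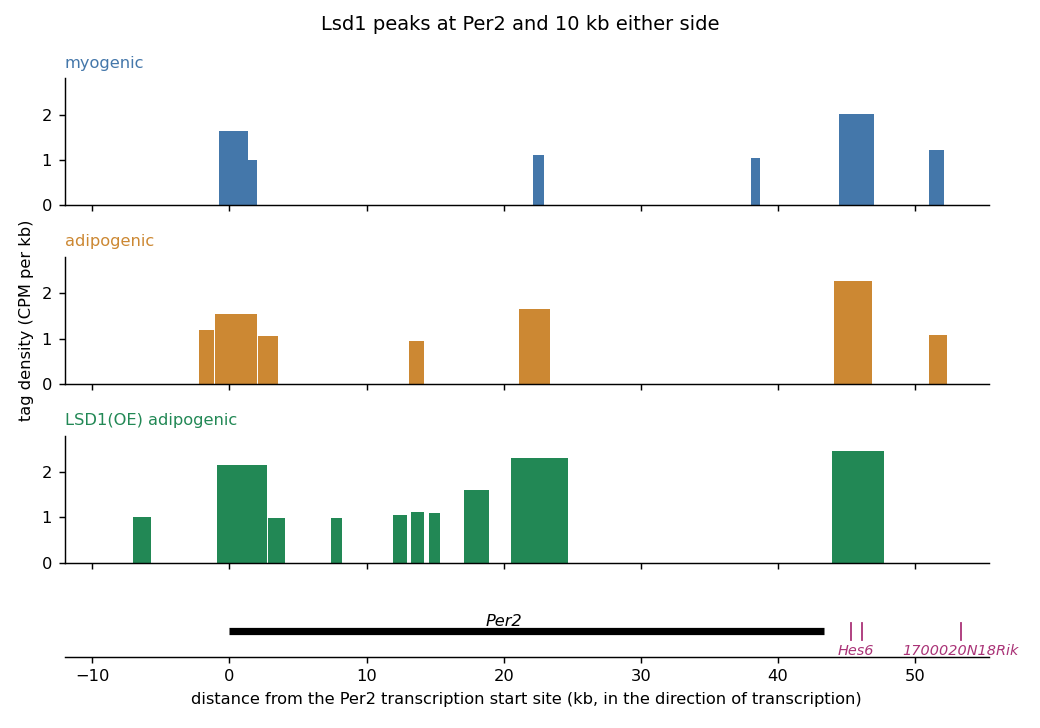
Lsd1 peaks at Per2 in the 3 libraries, drawn over their called extent against distance from the Per2 start (kb, in the direction of transcription), with height giving the tag density (CPM per kb). The black bar is Per2 and purple lines mark the starts of Hes6 and 1700020N18Rik. The peak near 22.6 kb, inside the gene, had a density of 1.10, 1.66 and 2.31 in the myogenic, adipogenic and LSD1(OE) library, and the peak near 18.0 kb was called in the LSD1(OE) library alone.

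The adipogenic over myogenic ratio of tags in Per2 peaks was 2.25 (1.95 to 2.60), and the LSD1(OE) over adipogenic ratio was 2.14 (1.96 to 2.33). Counted in this way and per all ChIP tags, Per2 had the only adipogenic over myogenic interval above 1 among the clock genes. That of Cry1 was 1.07 (0.869 to 1.31) and that of Bhlhe41 0.877 (0.782 to 0.984), while Per1, Bhlhe40 and Clock had 0.395, 0.345 and 0.282. Per ChIP tags in peaks the ratio was 5.00 (4.34 to 5.77) for Per2, and those of Cry1 (2.37, 1.93 to 2.92) and Bhlhe41 (1.95, 1.74 to 2.19) were above 1 as well. With all peaks of its window counted, as can be done alike for every gene, the adipogenic over myogenic ratio of Per2 was 1.69. Among 9060 protein-coding genes with a peak in both libraries the median was 0.486, 6.29% had a ratio above 1, and 108 had a higher ratio than Per2. Per ChIP tags in peaks the order of the genes is the same, but 56.4% had a ratio above 1. The LSD1(OE) over adipogenic ratio by the same count, 1.78, was exceeded by 2701 of 8636 genes.

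Inside Per2 the region 22.6 kb from the start (chr1:91434642-91438801, intron) had the highest density ratios of the gene in both comparisons. Its single peak had 40 tags, a length of 787 bp and a score of 79.6 in the myogenic library. In the adipogenic library it had 242 tags over 2277 bp and a score of 627. In the LSD1(OE) library it had 531 tags over 4160 bp and a score of 2945, which ranked 52 among the 33533 peaks of that library. The densities, 1.10 (0.787 to 1.50), 1.66 (1.46 to 1.89) and 2.31 (2.12 to 2.52), rose in that order. The adipogenic over myogenic ratio was 1.51 (1.08 to 2.17), and 6 of 14149 regions had a higher one. The myogenic peak had an FDR of 0.2% and was not kept at an FDR of 0.1%, where this ratio has no value. The LSD1(OE) over adipogenic ratio was 1.39 (1.19 to 1.63), exceeded by 932 of 13053 regions. The myogenic and LSD1(OE) summits lay at 22544 and 22444 bp, and both windows held the AGGTCA core, as do 17.7 and 17.6% of all summit windows of these libraries. The adipogenic summit lay at 22875 bp, in a window with none of the motifs.

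A peak in the intron at 18.0 kb, also shown above, was called in the LSD1(OE) library alone, with 162 tags and a score of 573. A further 5 weaker LSD1(OE) peaks, with scores from 63.0 to 117, lay between 3.4 and 15.0 kb, of which the peak at 3.4 kb belongs to the region at the start and the region at 13.6 kb had an adipogenic peak of 69.0. The region at the Per2 start, 5094 bp long after joining, had best scores of 590, 705 and 2052. Its density was 1.49, 1.38 and 1.86, with an adipogenic over myogenic ratio of 0.927 (0.777 to 1.11) and an LSD1(OE) over adipogenic ratio of 1.35 (1.18 to 1.54). The summit lay 167 bp upstream of the start in the myogenic library and 693 and 830 bp downstream in the adipogenic and LSD1(OE) libraries.

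**Figure D4:**
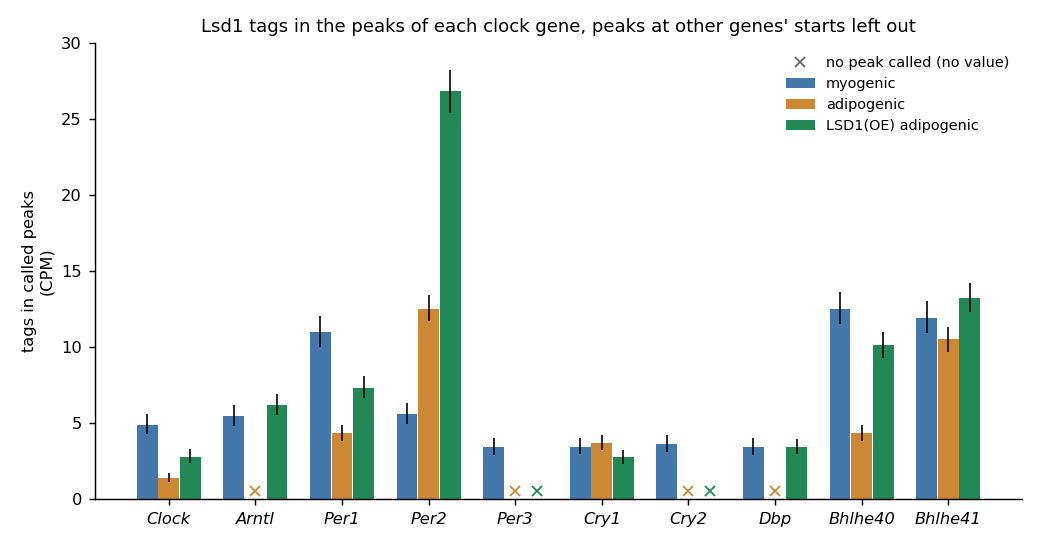
ChIP tags in called peaks (CPM, per 1000000 filtered ChIP tags) for each clock gene and library, with 95% Poisson intervals as error bars, which cover counting error of single libraries only. Peaks within 3000 bp of another gene's start and over 2000 bp from the gene's own were left out (none at Clock and Bhlhe40), and crosses mark libraries with no called peak and therefore no value. Per2 is the gene with the highest bars of both adipogenic libraries (12.5 and 26.8), whereas Bhlhe40, Bhlhe41 and Per1 have the highest myogenic bars.

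The Cry genes encode the strongest inhibitors of the CLOCK and ARNTL pair, and they differed in which libraries had a called Lsd1 peak. Cry1 (chr10:85131700-85185054, minus) had a promoter peak in every library, with scores of 602, 355 and 331. The density was 1.72 (1.46 to 2.01), 1.48 (1.30 to 1.68) and 1.22 (1.03 to 1.43), and the adipogenic over myogenic ratio of 0.861 (0.701 to 1.06) held 1. The LSD1(OE) over adipogenic ratio was 0.826 (0.669 to 1.02), and its interval lay below the median of 1.09. Against the myogenic library the LSD1(OE) ratio was 0.711 (0.565 to 0.894). Tags in the Cry1 promoter peak were 3.44, 3.68 and 2.74 CPM. The downstream peak of Cry1, with scores of 183, 306 and 172, lay at the start of Mterf2. The Cry1 promoter holds an E-box and its variant in the printed run, motifs found in 7.15 and 4.68% of all promoter windows.

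Cry2 (chr2:92403646-92434069, minus) had 2 myogenic peaks, of 505 at the promoter and 139 in an intron at 2.7 kb, and none in the other libraries. The promoter peak (chr2:92433160-92434550) had 116 tags and a density of 1.81. The nearest peaks of the adipogenic and LSD1(OE) libraries were centred 25746 and 25560 bp from the Cry2 start, outside the window. The printed Cry2 run holds the E-box variant.

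Dbp (chr7:45705247-45710203, plus), a PAR bZIP factor whose transcript is a robust output of the clock, had 3 myogenic peaks, no adipogenic peak and 2 LSD1(OE) peaks. Its strongest peak lay in the gene, with scores of 325 and 345 in the myogenic and LSD1(OE) libraries. The region (chr7:45706213-45708114) had a density of 1.33 and 1.38, and the ratio of 1.03 (0.795 to 1.34) held 1. In the myogenic library this peak, centred 1916 bp from the start, counts as a promoter peak. The peak at the start itself was weaker, with scores of 64.8 and 132. The third myogenic peak, of 171, lay at the start of Sphk2. The nearest adipogenic peak was centred 37295 bp from the Dbp start. The LSD1(OE) summit window of the intronic region, printed above, holds an E-box at base 237, which 4.92% of all LSD1(OE) summit windows contain. The myogenic summit of this region, 1607 bp from the start, had none of the motifs in its window.

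The repressors Bhlhe40 and Bhlhe41 had peaks at and around the gene in all 3 libraries. Bhlhe40 (chr6:108660629-108666925, plus) had 6, 3 and 4 peaks. Its promoter peak scored 1002 in the myogenic, 64.5 in the adipogenic and 687 in the LSD1(OE) library, with densities of 1.65, 1.02 and 1.32 and an adipogenic over myogenic ratio of 0.618 (0.455 to 0.827). The adipogenic promoter peak was not kept at an FDR of 0.1%. The called length was 3480, 859 and 3530 bp. The adipogenic peak was centred 1082 bp inside the gene, in an intron, and did not cover the start. The myogenic and LSD1(OE) peaks were centred 383 and 386 bp upstream and spanned it. These densities and their ratios therefore come from partly different stretches. Tags over all Bhlhe40 peaks were 12.5 CPM (11.5 to 13.6), 4.32 (3.82 to 4.86) and 10.1 (9.29 to 11.0). They covered 8.22, 3.64 and 7.91 kb, at a mean density of 1.52, 1.19 and 1.28. Between the LSD1(OE) and adipogenic libraries the density ratio of the promoter region was 1.29 (0.965 to 1.76), with an interval that held the median of all regions. A downstream region at 8.6 kb differed less, with a density of 1.50, 1.32 and 1.32. The start of the transcript 0610040F04Rik lies inside the promoter of Bhlhe40 and cannot be separated from it.

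Bhlhe41 (chr6:145858243-145865420, minus) had 4, 3 and 5 peaks. The region over its start and body (chr6:145861782-145867287) scored 1097, 1137 and 2592 at its best peak, and its density was 1.93, 1.49 and 2.13. The adipogenic density was 0.772 times the myogenic one (0.679 to 0.879), with an interval that held the median of all regions, and the LSD1(OE) density was 1.43 times the adipogenic one (1.26 to 1.61), above the median. In the LSD1(OE) library the peak inside the gene (2.2 kb) had a density of 2.92 (2.63 to 3.24) while the peak at the start had 1.39 (1.20 to 1.60). In the myogenic library the same 2 peaks had 1.94 and 1.93. Adipogenic tags formed a single peak of 5186 bp over both. The adipogenic and LSD1(OE) summits inside the gene, 1757 and 1614 bp from the start, both had an E-box in their window. Of all adipogenic and LSD1(OE) summit windows, 4.90 and 4.92% hold one. The myogenic summit lay close by, at 1774 bp, and its window ended just short of this E-box. The E-box lies inside the called myogenic peak as well. A weaker downstream region at 7.8 kb scored 60.7, 182 and 325, with an adipogenic over myogenic ratio of 1.31 (0.879 to 2.01) that 61 of 14149 regions exceeded. Its myogenic peak had an FDR of 0.29% and was not kept at an FDR of 0.1%, where this ratio has no value.

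**Figure D5:**
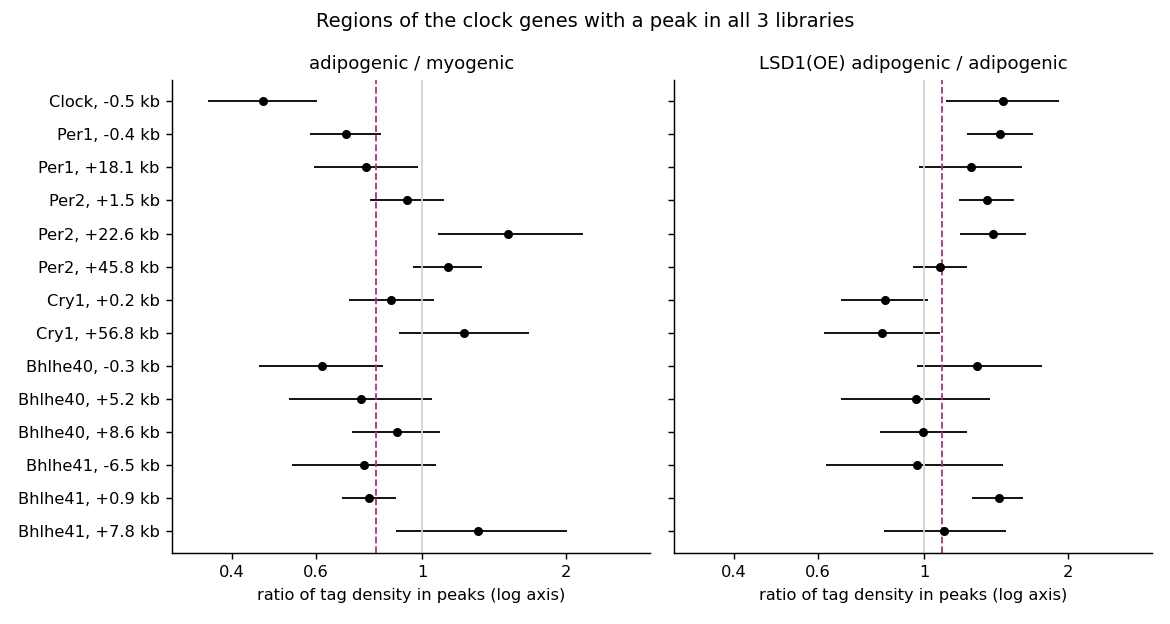
Ratio of tag density in called peaks (log axis) with exact 95% intervals for the 14 clock gene regions with a peak in all 3 libraries, labelled by gene and distance of the region's centre from the start. Solid grey lines mark 1 and dashed purple lines the median of all regions with a peak in both libraries, 0.800 on the left and 1.09 on the right. On the left the Clock region lies lowest, at 0.464, and the Per2 region at 22.6 kb highest, at 1.51.

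Across the regions with a peak in both libraries, the clock genes lay on both sides of the median of all regions. Of 15 regions in the myogenic and adipogenic libraries, 4 had an interval above the median of all regions, 1 below and 10 holding it, beside 5.42% of all such regions above and 9.25% below. Those above were the Per2 region at 22.6 kb, the region at Hes6, the region at Mterf2 and the downstream region of Bhlhe41, and the one below was that of Clock. The myogenic peaks of this Per2 region and of the Bhlhe41 region were not kept at an FDR of 0.1%, nor was the adipogenic peak of Clock. The adipogenic density was the higher one in 4 of the 15, beside 11.8% of all such regions. Of 15 regions in the adipogenic and LSD1(OE) libraries, the intervals of 5 lay above the median and of 2 below, beside 7.26 and 3.55% of all, and the LSD1(OE) density was the higher one in 10, beside 70.6% of all regions. The regions below the median were the Cry1 promoter and the region at Mterf2. An interval narrows with more tags, and the shares over all regions were not matched for tag number. Between the myogenic and LSD1(OE) libraries, the LSD1(OE) density was the higher one in 8 of 21 regions, beside 25.6% of all. Together the peaks of the 10 genes held 77.4 CPM (74.9 to 80.0) in the myogenic, 48.4 (46.7 to 50.1) in the adipogenic and 86.2 (83.7 to 88.7) in the LSD1(OE) library. The window of Per2 took up 15.6, 42.0 and 42.0% of these tags, and with peaks at other genes' starts left out as above 8.54, 34.1 and 36.9%. All called peaks of the libraries held 7.12, 3.20 and 5.28% of the ChIP tags, so their total was also lowest in the adipogenic library.

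Promoter sequence was compared over the 12 windows of 8 genes. An E-box was found at Per1, Cry1 and Bhlhe41, the E-box variant at Cry1 and Cry2, the D-box at Per3, and the AGGTCA core at Clock, Arntl and Per1, which 16.3% of all promoter windows hold. No window held a CRE, which 1.79% of all windows did. The CpG ratio (observed over expected CpG dinucleotides) ran from 0.536 to 1.09 in the 12 windows, above the median of 0.384 over all promoter windows. Genes with and without an adipogenic peak overlapped in this measure, with 0.665 at Dbp, 0.826 at Cry2 and 1.02 at Per3 beside 0.536 and 0.675 at Per1, 0.855 at Bhlhe41 and 0.979 at Cry1. Clock gene peaks gave 40 myogenic, 20 adipogenic and 33 LSD1(OE) summit windows. An E-box was in 1, 2 and 5 of them, beside 4.98, 4.90 and 4.92% of all, and its variant in 7, 0 and 2 (4.43, 4.51 and 4.55%). The AGGTCA core was in 5, 2 and 6, beside 17.7, 17.2 and 17.6%. A CRE was in 1, 1 and 0 (0.887, 1.04 and 0.832%), and a D-box in 1, 0 and 0 (0.748, 0.630 and 0.760%).

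A list of 20 other clock genes, with the paralogues, nuclear receptors, kinases and ubiquitin ligases of the loop, was set beside them. Of these 19, 17 and 19 had a peak in the myogenic, adipogenic and LSD1(OE) library, and 15, 11 and 15 had a promoter peak. Of all genes, 62.5, 41.2 and 53.9% had a peak, and 46.8, 27.0 and 37.3% had a promoter peak. Spans in this list ran up to 734 kb, against 107 kb for the longest of the 10 clock genes. A longer window can gather more peaks. A promoter peak in all 3 libraries was found at 8 of 20 genes, beside 23.5% of all genes, among them Nr1d1 and Nr1d2 (the REV-ERB receptors, repressors of Arntl), Nfil3 (a D-box repressor), Tef (a paralogue of Dbp), Btrc and Fbxw11 (parts of ligases that degrade PER proteins) and Gsk3b (a kinase). No gene of the list lacked a peak in all 3 libraries. Fbxl21 had one only in the LSD1(OE) library. The highest myogenic scores were 1536 at Nfil3, 1204 at Fbxw11 and 1201 at Tef. The highest adipogenic scores were 854 at Nfil3, 513 at Hlf and 472 at Npas2. In the LSD1(OE) library they were 2500 at Hlf, 1378 at Nfil3 and 931 at Npas2, the paralogue of Clock. Hlf, another PAR bZIP gene, had 573, 513 and 2500 in the 3 libraries, in an intron each time. The PAR bZIP genes therefore differed from each other in the adipogenic library, where Dbp had no peak, Tef had 5 and Hlf had 2.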

How the data were processed

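Lsd1 ChIP-seq was carried out in C2C12 cells with an antibody against Lsd1, 1 ChIP and 1 input library for each of 3 conditions, and single reads of 50 bp. Cells were grouped by the sample labels. The labels give 3 days of adipogenic induction, and the study's methods give another length. The authors mapped reads to mm10 with Bowtie and called peaks with MACS 1.4.2 against the matching input with a p-value limit of 1e-05. The deposited peak lists hold whole-number counts of ChIP tags per peak after the duplicate limit, not normalized, the MACS score (10 times −log10 p), the fold enrichment over local background, which was not compared between libraries, and the FDR in percent. All deposited peaks had an FDR under 1%.

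Spans and TSSs came from curated RefSeq transcripts of GRCm38.p6. Density ratios have exact conditional binomial 95% intervals, and no test between conditions was made, since a condition had 1 library. Every clock gene, its strongest peak by score, and, of the 20 other clock genes, those with a promoter peak in all 3 libraries, those with none, and the 3 highest scores of each library were named, except 1 gene that is not reported here. The genes and lists were chosen with earlier results of these data known. Alternatives were stricter peak thresholds, equal peak numbers, unscaled ChIP tags, other windows, placements, annotations and overlaps, and other density scales. Assignment, joining and intervals were tested on simulated data. Python 3.11.15, NumPy 2.4.6, pandas 2.3.3, SciPy 1.17.1 and Matplotlib 3.10.9 were used.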

Additional observations from a re-analysis of the deposited data

How the results depend on the processing

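The numbers of clock genes with a peak or a promoter peak stayed within 1.5 times their values under every alternative run. A stricter FDR of 0.1% or a score of at least 100 took the adipogenic peak of Clock and the promoter peaks of Clock and Bhlhe40 in the adipogenic library and of Arntl in the myogenic library, which equal peak numbers also took. The number of regions with a peak in all 3 libraries fell from 14 to 8 with an FDR of 0.1%, to 8 with a score of at least 100, and to 9 with a reciprocal overlap of at least 50%. With the gene span alone, 11 of the 20 other clock genes had an adipogenic peak instead of 17. The numbers of regions above the median density ratio stayed within 1.5 times under the alternatives run for them.

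With densities per 1000000 ChIP tags in peaks instead of all ChIP tags, 29 of 51 density ratios changed their side of 1, among them 11 whose interval had excluded 1. The adipogenic over myogenic ratio became 1.03 at the Clock promoter, 1.54 at the Per1 promoter, 1.69 at the Hes7 side of Per1, 1.37 at the Bhlhe40 promoter and 1.72 at Bhlhe41. The LSD1(OE) over adipogenic ratio became 0.883 at Clock, 0.875 at Per1, 0.817 and 0.843 at the Per2 start and intron, and 0.865 at Bhlhe41, and the LSD1(OE) over myogenic ratio became 1.08 at the Bhlhe40 promoter. On this scale, added after seeing the data for summed tags, the tag ratio crossed 1 at Bhlhe41 (adipogenic over myogenic 1.95, LSD1(OE) over adipogenic 0.767) and, LSD1(OE) over myogenic, at Cry1 (1.07) and Bhlhe40 (1.09). It divides by the share of tags in peaks, which differs between the libraries, and moves the median of all regions alike. No paired analysis was possible because each condition had 1 library. Without replicates, none of these differences can be set against the spread between samples.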
